A study of Homo sapiens with 10 samples.

Results

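The genes described here are 9 genes through which a tumour cell is seen or spared by immune cells: CD274 (PD-L1), PDCD1LG2 (PD-L2), CD47, NT5E (CD73), HLA-B, HLA-C, B2M, TAP1 and CIITA. They were chosen by name, with earlier results of these data known, out of 20163 protein-coding genes annotated on chromosomes 1 to 22, X and Y. A peak belonged to a gene when it shared at least 1 base with the gene bounds widened by 30 kb, and a promoter was any annotated start site of the gene widened by 1 kb. By this rule 91 of the 128837 peaks of 4 lists lay near the 9 genes.

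The study mapped histone marks and open chromatin in MDAMB231, an established human breast cancer cell line of triple-negative, mesenchymal-like type, grown in DMEM with fetal bovine serum and given no treatment. ChIP-seq, which recovers DNA bound to a modified histone with an antibody, was run on 2 samples per mark (H3K4me3, H3K27Ac and H3K4me1), with 1 sample of input DNA shared among the marks. FAIRE-seq, which recovers DNA free of nucleosomes, was run with 2 samples and 1 input sample of its own. The authors combined both samples of each assay into a single list of peaks, so no value below has a replicate error and no difference was tested. All coordinates are those of hg19 (GRCh37).

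T cells carry the receptor PD-1, and its ligands PD-L1 and PD-L2 on another cell dampen their response, while CD47 holds back macrophages and CD73 makes adenosine, which quiets several kinds of immune cell. Class I molecules made of a heavy chain (HLA-B or HLA-C) and beta-2-microglobulin (B2M) show peptides at the cell surface, after TAP has carried the peptides into the endoplasmic reticulum. CIITA is the master activator of the class II genes, and many genes of both arms are induced by interferon gamma. Among the marks, H3K4me3 lies at start sites, H3K27Ac at active promoters and enhancers, and H3K4me1 at enhancers and around promoters.

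The cell line label was checked against markers at the canonical start site, the start of the transcript that the annotation tags as canonical. Of all protein-coding genes, 64.0% had H3K4me3, 59.1% H3K27Ac and 31.2% FAIRE there. H3K4me3 and H3K27Ac peaks were present at 6 of 6 mesenchymal-like markers (VIM, CD44, CAV1, AXL, EGFR and PLAU). Of 8 luminal and epithelial markers, 6 had an H3K4me3 peak, 3 an H3K27Ac peak and 1 a FAIRE peak, and over all their start sites these counts were 7, 5 and 5. CDH1 (E-cadherin) and GATA3 had no peak of any list at the canonical promoter, although another start had H3K27Ac, with scores of 538 and 383. ESR1 and PGR, the hormone receptor genes, had H3K4me3 alone, and the 3 with H3K27Ac were ERBB2, EPCAM and KRT8. Of 10 leukocyte markers, 8 had no peak there, PTPRC (CD45) and SPI1 among them. The others were CD14, with H3K4me3 alone at a score of 1433, and CD68, with an H3K27Ac score of 512 and a FAIRE height of 141. The mesenchymal-like genes thus carried marks that most genes carry and most leukocyte genes lacked, and the luminal genes were mixed and do not separate the label from a luminal line.

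Because the genes were chosen with earlier results of these data known, the counts below describe them and do not test them against other genes. At the promoters, H3K27Ac was found at 9 of the 9 genes, against 63.3% of all protein-coding genes. H3K4me3 was found at 8 of 9, against 67.1%, and PDCD1LG2 was the gene without it. A FAIRE peak was present at 6 of 9, against 39.2%, and an H3K4me1 peak at 4 of 9, against 20.0%. At the canonical start site alone, the counts were 8 for H3K4me3 (64.0% of all genes), 9 for H3K27Ac (59.1%), 2 for H3K4me1 (12.2%) and 5 for FAIRE (31.2%). The H3K4me1 count rested on peaks beside the start sites, and it was 0 when start sites were widened by 500 bp. The FAIRE count rested on peaks of modest height, and it was 2 (B2M and CIITA) when peaks lower than the list's median, 61.1, were dropped.

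Within 30 kb of the gene bounds, 8 of 9 genes had an H3K4me3 peak (81.3% of all genes), 9 an H3K27Ac peak (82.6%), 7 an H3K4me1 peak (53.8%) and 9 a FAIRE peak (78.7%). The 91 peaks comprised 14 of H3K4me3, 30 of H3K27Ac, 16 of H3K4me1 and 31 of FAIRE, with 4 peaks shared by the neighbours CD274 and PDCD1LG2 counted a single time. CIITA had the most peaks, 21, in the longest window, 137 kb, and HLA-B the fewest, 3, in 73.2 kb. Per 100 kb of window, the median over the genes was 4.37 for H3K27Ac and 3.77 for FAIRE, against 2.23 and 1.96 over all protein-coding genes. For H3K4me3 it was 1.58 against 1.43. The totals depend on the limits set, since bounds of 100 kb gave 26, 52, 34 and 65 peaks in the same order, histone scores of 100 or more left 9 H3K4me1 peaks, and FAIRE heights from the median up left 13.

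**Figure D1:**
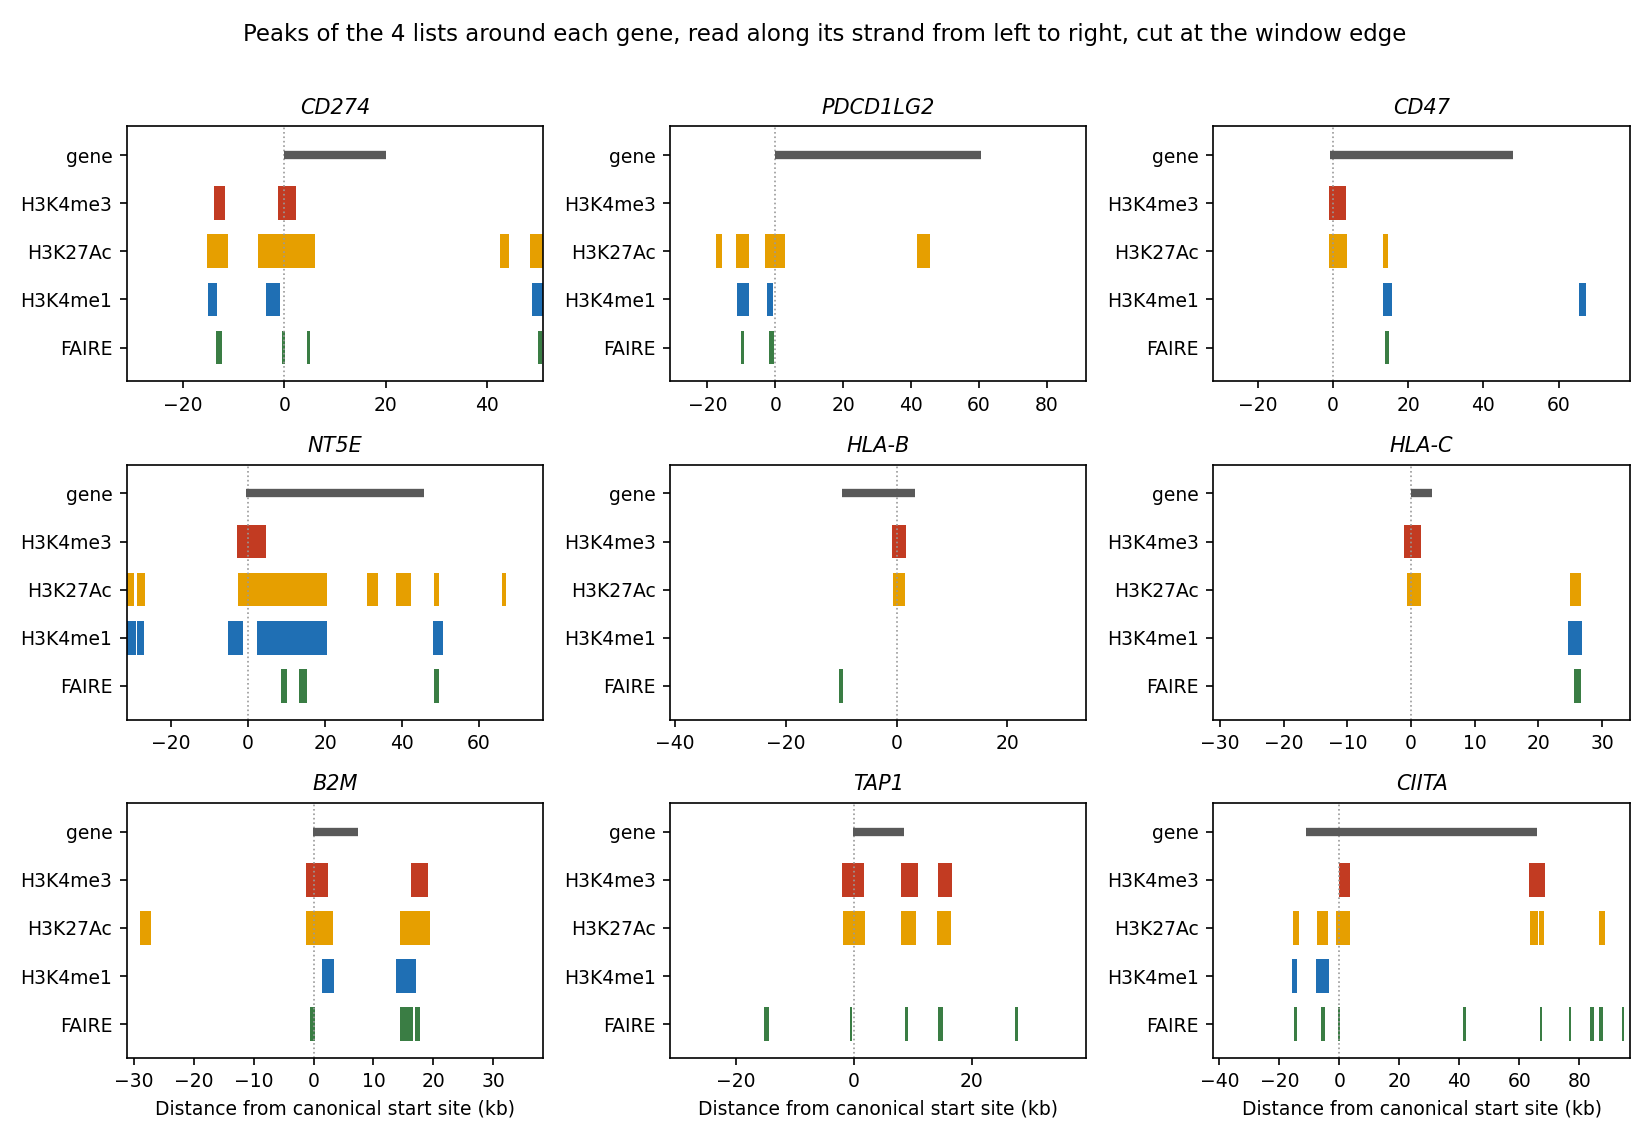
Peaks of the 4 lists around each of the 9 genes, with distance from the canonical start site in kb on the horizontal axis, the gene body as a grey bar and each peak as a coloured bar. Bars are cut at the window edge and adjoining peaks touch, CIITA had 21 peaks and HLA-B 3, and H3K4me3 is missing from the window of PDCD1LG2.

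The genes fell into 4 combinations of peaks at the canonical start. H3K4me3 with H3K27Ac and no other list was the state of CD47, NT5E, HLA-B and HLA-C, and of 24.0% of all protein-coding genes. The same pair with a FAIRE peak was the state of B2M, TAP1 and CIITA, and of 23.1% of all genes. CD274 had a peak of all 4 lists, as did 6.47% of genes. PDCD1LG2 had H3K27Ac, H3K4me1 and FAIRE without H3K4me3, a state of 97 genes or 0.481%. The states of CD274 and PDCD1LG2 rest on H3K4me1 peaks that ended 923 bp and 639 bp from the start. With start sites widened by 500 bp, neither gene had H3K4me1. An absent peak means that none was called at the authors' threshold, not that the mark was absent.

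Histone peaks carry a score from the authors, minus 10 times the log10 of the p-value of MACS, and FAIRE peaks carry a height. The highest scores were held at 3100 with few exceptions, so peaks at this ceiling could not be ranked. Of all promoters with H3K4me3, 81.8% were at the ceiling, and so were 7 of the 9 genes here. For H3K27Ac the share was 15.8%, and PDCD1LG2 was the gene of the 9 that reached it. A percentile below is the rank of a gene among all genes with a promoter peak of that list, and tied genes share their mean rank.

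**Figure D2:**
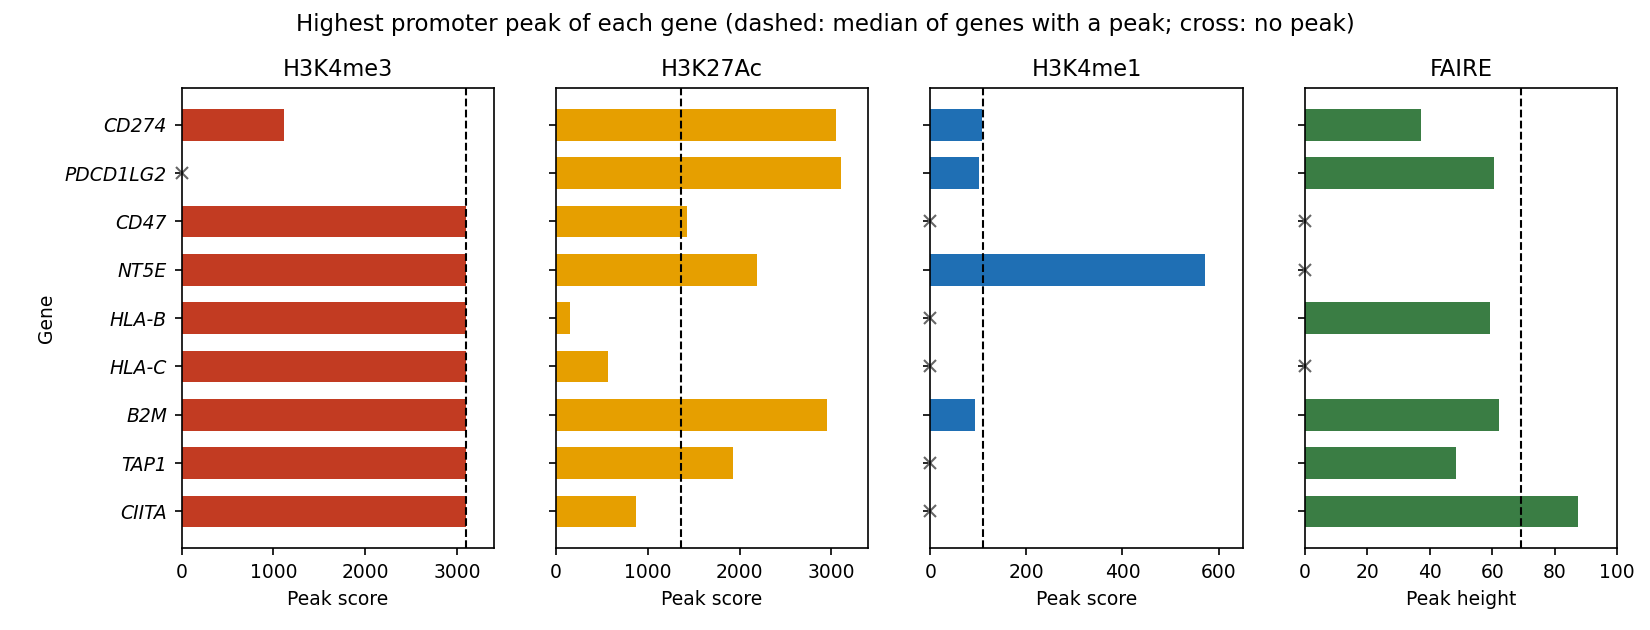
Highest promoter peak of each gene in each list, as MACS score for the histone marks and as height for FAIRE, with a dashed line at the median over all protein-coding genes that have such a peak. H3K4me3 was at 3100 for 7 genes and at 1114 for CD274, while H3K27Ac ran from 150 for HLA-B to 3100 for PDCD1LG2.

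The ligands of PD-1 lie next to each other on chromosome 9, both on the plus strand, CD274 from 5450503 to 5470566 and PDCD1LG2 from 5510531 to 5571282. At CD274 the H3K4me3 peak, from 5449331 to 5452836, had a score of 1114, at the 7.04 percentile. The H3K27Ac peak over the same start had a score of 3049, at the 83.7 percentile, and was 11090 bp wide, at the 97.9 percentile of width. CD274 thus combined a low H3K4me3 score with a high H3K27Ac score over a wide peak. Among the 2080 genes with promoter H3K27Ac at least as high as CD274, 91 (4.38%) had H3K4me3 no higher than CD274 or none. The FAIRE peak over the CD274 start, from 5450033 to 5450750, had a height of 37.3, at the 6.59 percentile, and the H3K4me1 peak (score 107) ended 923 bp upstream of the start. A further FAIRE peak of height 31.7 lay 4.51 kb downstream, inside the gene and within 1 kb of another start site of CD274.

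At PDCD1LG2 the H3K27Ac peak, from 5507637 to 5513268, was at the ceiling of 3100. No H3K4me3 peak lay in its window, and the nearest was that of CD274, 57695 bp from the start. Of the 11923 genes with H3K27Ac at the canonical promoter, 2.29% had no H3K4me3 there. Of the 2011 genes with promoter H3K27Ac at the ceiling, 56 (2.78%) had no promoter H3K4me3, so the combination was rare among promoters at the ceiling. The FAIRE peak of PDCD1LG2, with a height of 60.6, ended 373 bp upstream of the start, and the H3K4me1 peak, with a score of 101, ended 639 bp upstream. Open chromatin and H3K4me1 therefore stood beside the start site and not over it.

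Between the genes, both windows held the same distal peaks, where distal means more than 1 kb from any annotated start site. The highest, for H3K27Ac, spanned 5498938 to 5502668 and scored 1540, 7.86 kb upstream of the PDCD1LG2 start and 48.4 kb downstream of the CD274 start. It overlapped an H3K4me1 peak with a score of 150 and a FAIRE peak with a height of 44.2. A lower H3K27Ac peak (score 215) lay 15.7 kb upstream of PDCD1LG2, and another (score 505) lay 41.8 kb downstream of its start, inside the gene. Which of the genes such an element acts on was not tested. On the other side of CD274, the peaks of all 4 lists at 11.1 to 13.2 kb upstream belonged to the start of PLGRKT, with an H3K27Ac score of 3018.

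PDCD1LG2 and CD47 were the extremes of the set in base composition and differed in H3K4me3. The promoter of CD47 is shown for its density of CG dinucleotides, which are in capitals. It is read 5′ to 3′ along the minus strand of GRCh37 at chr3:107809879-107810128, the 250 bases just upstream of the canonical start, which lie outside annotated exons.
CD47: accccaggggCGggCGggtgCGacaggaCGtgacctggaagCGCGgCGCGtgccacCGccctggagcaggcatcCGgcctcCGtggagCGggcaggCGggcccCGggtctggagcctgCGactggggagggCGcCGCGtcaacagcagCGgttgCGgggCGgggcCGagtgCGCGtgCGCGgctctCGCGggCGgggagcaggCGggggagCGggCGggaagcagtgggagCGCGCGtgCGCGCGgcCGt
CD47 had 39 CG in these 250 bases and 79.6% G or C. PDCD1LG2 had 1 CG and 38.8% G or C in the 250 bases before its start. CIITA was nearly as poor, with 2 CG and 46.8% G or C, and had H3K4me3 at the ceiling. The median of 97 genes in the same state as PDCD1LG2 was 3 CG, and the median of all 19881 promoters of this length was 18.

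CD47, whose protein binds SIRP alpha on macrophages as a signal against engulfment, lies on the minus strand of chromosome 3 from 107761938 to 107810709. Its H3K4me3 peak was at the ceiling and 4719 bp wide, at the 91.8 percentile of width. The H3K27Ac peak had a score of 1428, close to the median of 1357 over genes with such a peak. Both marks thus stood at the start with no FAIRE peak called there, and the nearest was 13923 bp away. That peak, with a height of 74.1, lay inside the gene with an H3K4me1 peak (score 69.6) and an H3K27Ac peak (score 54.7). The highest distal H3K4me1 peak of CD47, with a score of 81.2, lay downstream of the gene and met no other list.

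NT5E, which encodes the CD73 enzyme that turns AMP into adenosine, lies on the plus strand of chromosome 6 from 86159302 to 86205509. It had the widest promoter domains of the 9 genes in all 3 histone lists. Its H3K4me3 peak was at the ceiling and 7406 bp wide, at the 99.1 percentile. The H3K27Ac peak, from 86157063 to 86180417, was 23355 bp wide, at the 99.8 percentile, with a score of 2189. An H3K4me1 peak from 86162234 to 86180335, inside this domain, was 18102 bp wide and had a score of 572, at the 95.8 percentile. It counted as a promoter peak through a downstream start at 86181099, and the H3K4me1 peak near the upstream start had a score of 133. Acetylation thus ran from the start far into the gene, and the wide H3K4me1 peak began near the end of the H3K4me3 peak. H3K27Ac covered 33.6% of the NT5E window and H3K4me1 26.1%, against medians of 6.25% and 1.57% over all genes.

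No FAIRE peak was called at the NT5E promoter, and the nearest was 8572 bp from the start. Inside the domain, adjoining FAIRE peaks at 13.3 kb and 14.6 kb from the start had heights of 108 and 135, at the 89.0 and 96.0 percentiles of the whole FAIRE list. The height of 135 was the greatest among the 31 FAIRE peaks near the 9 genes. Upstream of NT5E, distal H3K27Ac peaks with scores of 562 and 142 lay 29.7 kb and 26.9 kb from the start, and an H3K4me1 peak with a score of 432 met the former. The highest distal H3K27Ac peak of the window, with a score of 677, lay inside the gene, 38.5 kb downstream of the start. Lower ones, with scores of 169 and 64.0, lay 30.9 kb and 65.9 kb downstream of the start. The FAIRE peaks of NT5E therefore lay within the gene or, with a height of 63.7, downstream of it, and not at the start.

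**Figure D3:**
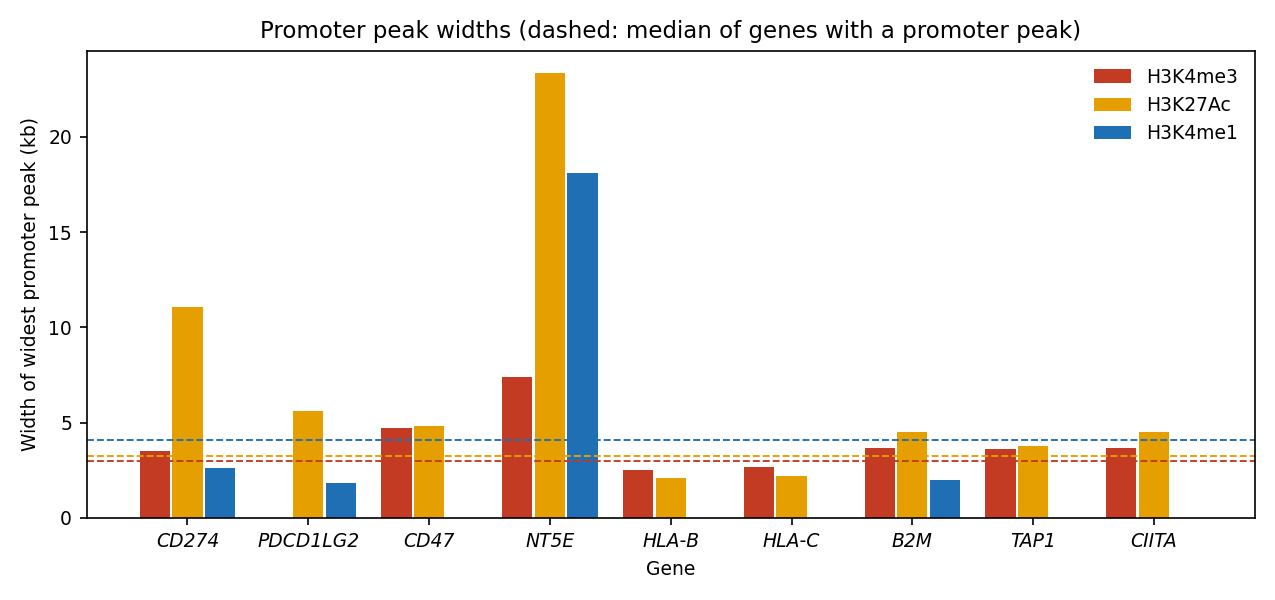
Width in kb of the widest promoter peak of each gene for the 3 histone marks, with dashed lines at the median over all protein-coding genes with a peak. NT5E stands above the other genes in each mark, with 23355 bp of H3K27Ac, and CD274 follows with 11090 bp of H3K27Ac.

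Among the class I genes, HLA-B and HLA-C encode heavy chains and lie on the minus strand of chromosome 6, HLA-B from 31321649 to 31334844 and HLA-C from 31236526 to 31239907. Both had H3K4me3 at the ceiling. The H3K27Ac score was 150 at HLA-B, at the 4.88 percentile, and 568 at HLA-C, at the 20.2 percentile. HLA-B and HLA-C thus had the lowest acetylation scores of the 9 genes beside H3K4me3 that could not be ranked. Among the 11064 genes with promoter H3K4me3 at the ceiling, 259 (2.34%) had a promoter H3K27Ac score at or below that of HLA-B, and 232 more (2.10%) had no promoter H3K27Ac peak.

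No FAIRE peak was called at the canonical start of HLA-B or HLA-C. The FAIRE peak counted for HLA-B, with a height of 59.3, lay 9.62 kb upstream, over starts of longer HLA-B transcripts and of DHFRP2, and met no histone peak. For HLA-C the nearest, with a height of 93.1, lay 25.6 kb downstream with an H3K27Ac peak (score 97.0) and an H3K4me1 peak (score 78.2). The HLA-B window held no H3K4me1 peak, and the nearest was 109805 bp from its start. These values are to be read with caution, because class I genes resemble each other and the authors discarded reads of low mapping quality. Over the 250 bases before their starts, HLA-B and HLA-C aligned with 226 identical positions in 254 columns (89.0%). Within 1 kb of the start, 97.1% of the 50-base words of HLA-B and 96.2% of those of HLA-C occurred a single time in the reference, against 98.6% for PDCD1LG2 and 1952 of 1952 words for each of the other 6 genes. Words were matched exactly to the reference, so near matches and the alleles of this line were not counted. The part of shared sequence in the HLA-B and HLA-C values was not tested. Words of the other HLA genes named below were not counted, and their missing peaks call for the same caution.

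B2M, the light chain common to all class I molecules, lies on the plus strand of chromosome 15 from 45003556 to 45011049. Its H3K27Ac score was 2955, at the 82.9 percentile, far above those of the heavy chains. The FAIRE peak over the start, from 45003133 to 45004035, had a height of 62.1, at the 39.5 percentile. An H3K4me1 peak with a score of 92.3 began 1432 bp downstream of the canonical start, next to other B2M starts. The B2M window also held the start of TRIM69, with FAIRE peaks of height 81.8 and 112, so the highest FAIRE values near B2M were not at its own start. Its promoter peaks also met a start of PATL2, on the other strand. The distal H3K27Ac peak of the B2M window, with a score of 157, lay 27.1 kb upstream of the canonical start and met no other list.

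TAP1, a subunit of the peptide transporter, lies on the minus strand of chromosome 6 from 32812986 to 32821593, and its promoter peaks also lay at the start of PSMB9, a subunit of the immunoproteasome. The H3K27Ac score was 1930, at the 66.1 percentile. The FAIRE peak, with a height of 48.5, began 226 bp upstream of the TAP1 start, and at 396 bp it was among the narrowest, at the 0.202 percentile of width. No H3K4me1 peak lay in the TAP1 window. The other H3K4me3 and H3K27Ac peaks there were at starts of PSMB8 and PSMB9 (H3K27Ac score 877) and of TAP2 (1414), each with a FAIRE peak, of heights 73.2 and 45.7. H3K4me3, H3K27Ac and FAIRE thus stood together at these starts and at the canonical start of TAP1, while the TAP1 starts at 32816007 and 32817919 had no peak within 1 kb. H3K4me3 covered 12.9% of it, against a median of 3.84%. The highest distal FAIRE peak, of height 61.9 and 14.4 kb upstream, met no histone peak.

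CIITA lies on the plus strand of chromosome 16 from 10960079 to 11036878, with 16 annotated start sites. The H3K4me3 peak at the canonical start, from 10970874 to 10974519, was at the ceiling, and the H3K27Ac peak there had a score of 868, at the 32.0 percentile. The FAIRE peak over this start, from 10970567 to 10971412, had a height of 87.4, the highest of the promoter FAIRE peaks of the 9 genes. The highest H3K27Ac score of the window was not at the promoter. Distal H3K27Ac at 10963500 to 10967261, between the upstream starts of CIITA and the canonical start, reached 2908 and met an H3K4me1 peak (score 120) and a FAIRE peak (height 68.0). Further upstream, 14017 bp from the canonical start, a FAIRE peak with a height of 119 overlapped H3K27Ac (score 105) and H3K4me1 (score 62.8). The starts at 10960079 and 10960117 had no peak within 1 kb in any list. Downstream starts at 10995416, 11009503, 11016024, 11016782 and 11022021 likewise had none. The start at 11034576 lay in H3K4me3 and H3K27Ac peaks that also met a start of DEXI.

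Promoters of CD274 and TAP1 are shown for their matches to the letters bound by interferon-activated factors. The ISRE core was searched as GAAANNGAA and the GAS as TTCNNNGAA, on both strands of the 250 bases before the canonical start, and matches are in capitals. The stretches, read along the gene from GRCh37, are the bases outside annotated exons: CD274 at chr9:5450292-5450502, plus strand, and TAP1 at chr6:32821594-32821731, minus strand.
CD274: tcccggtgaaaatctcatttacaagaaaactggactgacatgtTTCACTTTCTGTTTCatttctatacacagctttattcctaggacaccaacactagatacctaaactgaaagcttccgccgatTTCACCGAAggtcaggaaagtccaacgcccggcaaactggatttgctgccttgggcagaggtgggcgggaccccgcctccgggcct
TAP1: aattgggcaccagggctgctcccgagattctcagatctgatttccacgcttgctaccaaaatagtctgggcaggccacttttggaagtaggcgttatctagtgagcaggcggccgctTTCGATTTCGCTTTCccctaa
CD274 had overlapping ISRE core matches from 207 to 193 bases before the start and a GAS match from 125 to 117. TAP1 had overlapping ISRE core matches from 133 to 119 bases before its start, and CIITA a single match from 115 to 107. B2M also had overlapping ISRE core matches, from 144 to 130 bases before its start, in bases that an annotated exon covers and that are not shown.

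The ISRE core was found at 4 of the 9 promoters, against 6.14% of 19881 promoters of the same length. All 4 (CD274, B2M, TAP1 and CIITA) had a FAIRE peak at the canonical start, and the 5 without a match included PDCD1LG2, which also had one. Of all protein-coding genes, 31.2% had FAIRE there, and the share among all promoters with an ISRE core was not counted. The peaks of CD274 and TAP1 were low, with heights of 37.3 and 48.5. The GAS letters were found at CD274 alone, against 5.67% of promoters. An NF-kB site was found at HLA-B, HLA-C, B2M and TAP1, against 5.86%, so the 4 class I genes shared it, with overlapping matches at HLA-B. The same 4 genes had a CCAAT box (CCAAT, 34.2% of promoters). The CRE core letters (TGACGT, 8.57%) were found at NT5E, and an AP-1 site (TGANTCA, 4.69%) at 0 of the 9. A match describes these letters in this window and says nothing about binding.

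Of the 8 genes with H3K4me3 at the canonical promoter, 4 also had FAIRE there, against 47.3% of all genes with H3K4me3. The 4 without it, CD47, NT5E, HLA-B and HLA-C, had their nearest FAIRE peak between 8572 bp and 25614 bp from the start, against a median of 18581 bp over 6798 genes in the same class. CG dinucleotides in the 250 bases before the start numbered 39 at CD47 and 28 at NT5E, above the 15 to 17 of HLA-C and HLA-B. Among genes with FAIRE and H3K4me3, B2M had 18, CD274 and TAP1 16 and CIITA 2. The median was 25 for all genes with H3K4me3 and no FAIRE and 20 for those with both, so CD47 and NT5E lay above the former and the HLA genes below it.

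**Figure D4:**
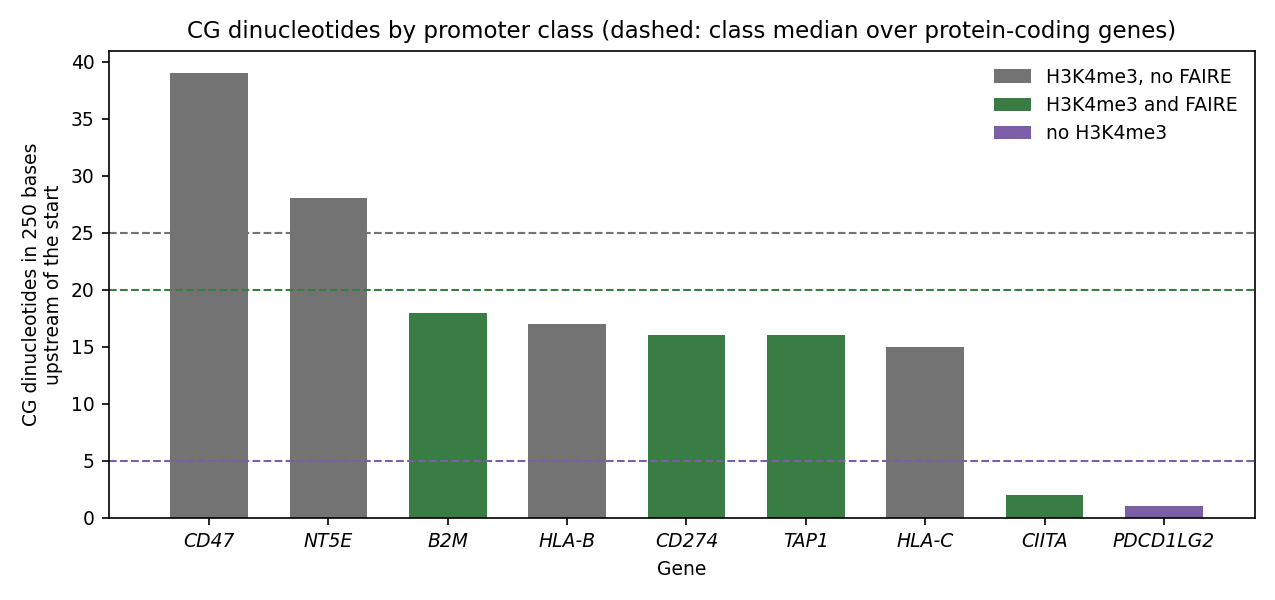
CG dinucleotides in the 250 bases before the canonical start of each gene, coloured by the peaks at that start, with dashed lines at the medians of the same classes over all protein-coding genes. CD47 had 39 and NT5E 28, while CIITA had 2 and PDCD1LG2 1.

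Away from start sites, the genes had 14 distal H3K27Ac peaks, 8 distal H3K4me1 peaks, 15 distal FAIRE peaks and 0 distal H3K4me3 peaks. These were 14 of 30, 8 of 16 and 15 of 31, against 56.7%, 74.2% and 74.8% distal peaks in the whole lists. By rule every window held the starts of its gene, while the whole lists also cover regions far from genes. The shares are therefore not like for like, and distal shares in the windows of all genes were not counted. Of the 8 distal H3K4me1 peaks, 7 met H3K27Ac and 5 met FAIRE, against 70.7% and 72.0% of 19855 distal peaks of the whole list. Distal H3K27Ac scored lower than that at the canonical promoters, with a median of 163 against 1930, and over the whole list the medians were 339 for distal peaks and 1049 for those at start sites. The peak inside CIITA, upstream of its canonical start, and the peak between CD274 and PDCD1LG2 were the highest, at 2908 and 1540. Of the 15 distal FAIRE peaks, 10 met H3K27Ac, 8 met H3K4me1 and 5 met no histone list. Over the 34828 distal peaks of the whole FAIRE list, these shares were 66.7%, 61.7% and 23.4%. The 5 that met no histone list lay near CIITA and TAP1.

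The wider pathways gave a setting for the 9 genes, with counts at the canonical start to be read against 64.0% of all genes for H3K4me3, 59.1% for H3K27Ac and 31.2% for FAIRE. Of 19 class I presentation genes, 18 had H3K4me3 at the canonical promoter, 17 H3K27Ac and 13 FAIRE. HLA-G, a heavy chain of restricted expression, had no peak of any list, and HLA-F had H3K4me3 and FAIRE without H3K27Ac. HLA-E had an H3K27Ac score of 744, above HLA-B and HLA-C, and a FAIRE peak at the start. HLA-B and HLA-C thus differed from HLA-E in both lists.

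Of 16 class II presentation genes, 11 had H3K4me3, 6 H3K27Ac and 7 FAIRE, and 5 had no peak at the canonical promoter. CIITA was among the 6 with H3K27Ac. The others were CD74 (score 562), the invariant chain, the protease gene CTSS (171) and the RFX subunits RFX5 (544), RFXAP (1125) and RFXANK (1265). HLA-DRA had H3K4me3 (749), H3K4me1 and FAIRE without H3K27Ac, and HLA-DPA1, HLA-DQA1, HLA-DOA and HLA-DOB had no peak at any start. HLA-DRB1, the other gene with no canonical peak, had H3K4me3 (104) at another start. The alpha and beta chain genes of class II thus had no H3K27Ac at the canonical start, where CIITA had it, and HLA-DMA had it at another start.

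Of 18 checkpoint and adenosine genes, 10 had H3K4me3, 9 H3K27Ac and 4 FAIRE, and 7 had no peak at the canonical promoter, among them CD80, CD86 and IDO1. CD274, PDCD1LG2, CD47 and NT5E made up 4 of the 9 with H3K27Ac. ENTPD1 (CD39), which acts before CD73 in making adenosine, had H3K4me3 alone, with a score of 252, where NT5E was at the ceiling. Of 11 interferon gamma signalling genes, 11 had H3K4me3 and 11 H3K27Ac at the canonical promoter, and the 4 with FAIRE there were near the 31.2% of all genes. IRF1, a factor that binds the ISRE, had all 4 lists, with H3K27Ac at the ceiling.

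**Figure D5:**
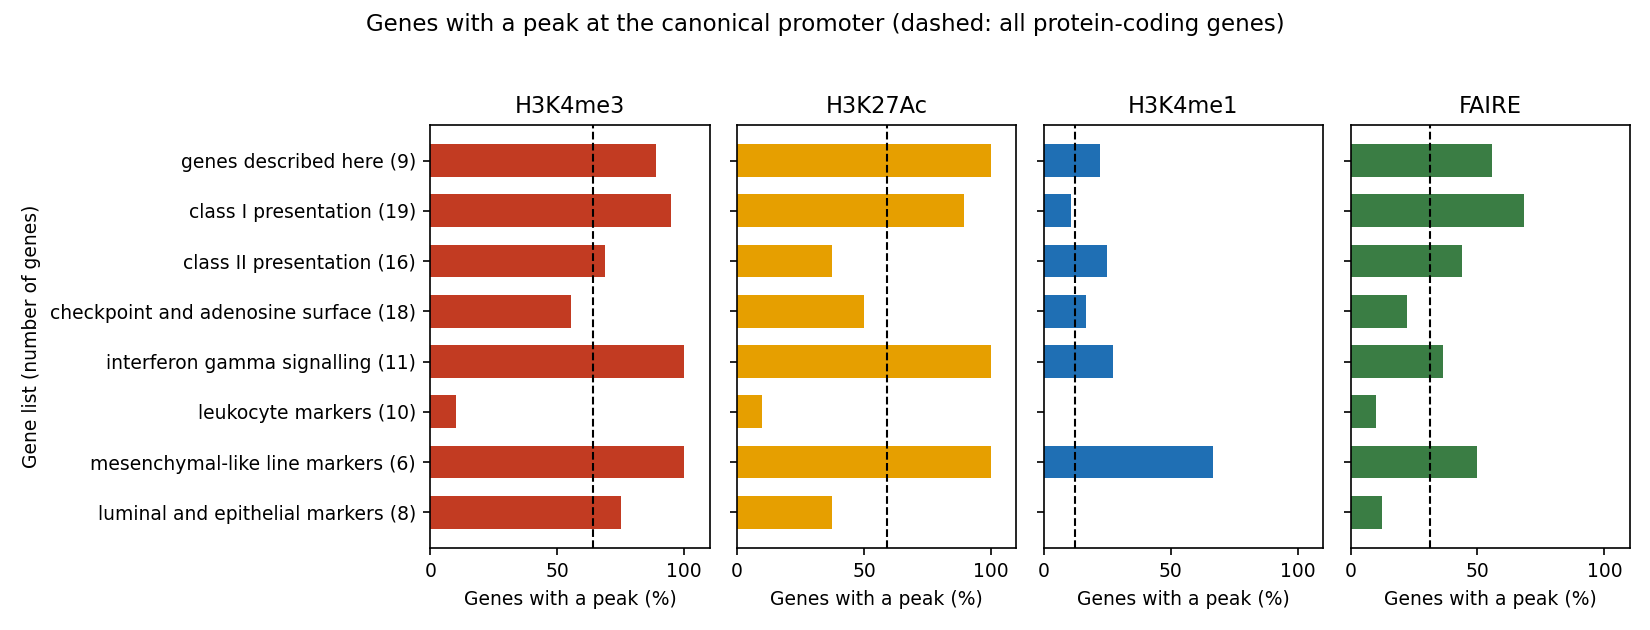
Percent of the genes of each list with a peak at the canonical promoter in each of the 4 peak lists, with a dashed line at the percent of all protein-coding genes. H3K27Ac was found at 9 of the 9 genes described, at 17 of 19 class I genes, at 6 of 16 class II genes and at 1 of 10 leukocyte markers.

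Likeness between promoters was measured as the summed difference of percentiles over the 4 lists, with 0 for no peak, among the genes of these lists. CD274 and PDCD1LG2 were closest to each other, with a sum of 48.6. HLA-C was closest to IFNGR1 (3.50), CD47 to PSMB10 (8.15), B2M to JAK1 (12.1) and CIITA to PSMB8 (14.2). TAP1 was closest to its neighbour TAP2 (18.1) and HLA-B to HLA-F (18.2). The measure took the highest peak at any start, so the FAIRE value of HLA-B was that of the peak 9.62 kb upstream, and at the canonical start HLA-F had FAIRE and HLA-B had none. The H3K4me1 value of NT5E was likewise that of the peak counted through its downstream start. At the canonical start, B2M had FAIRE where JAK1 had none, and PSMB10 had FAIRE where CD47 had none. JAK2, in the same canonical state as CD47, had a sum of 12.0 to it. NT5E was closest to IFNGR2, at 45.1, with EGFR next at 49.5. NT5E, CD274 and PDCD1LG2 thus had larger sums to their closest gene than the other 6. Genes that both lacked a peak tied at 0, which made sums small. HLA-C and IFNGR1, for example, differed in H3K27Ac alone, at the 20.2 and 23.7 percentiles. The 7 genes at the H3K4me3 ceiling tied there with most genes of the lists, at the 58.5 percentile, so for them this list added little. For CD274, at the 7.04 percentile, and PDCD1LG2, with no H3K4me3 peak, it made up much of the distance to genes at the ceiling.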

How the data were processed

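Reads were aligned by the authors to hg19 (BWA), filtered for duplicates and for poor mapping (Samtools), and joined over both samples of an assay. Peaks came from MACS for the histone marks, at p of 1e-5, and from FindPeaks for FAIRE, both relative to input. The deposited histone score is minus 10 times the log10 of the p-value, with most of the highest values held at 3100. The deposited FAIRE value is a signal height, whose scaling by depth is not given in the sources used here. Read depths are not given in the lists, so the precision of single peaks is unknown.

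Starts in the lists were taken as counted from 0. Gene bounds and start sites came from GENCODE v44lift37 on GRCh37, and 282 of 20163 genes without a canonical tag counted as having no canonical peak. A shared base was enough for an overlap. Counting ran in Python 3.11.15 (numpy 2.4.6, pandas 2.3.3) and, on simulated intervals, was checked against bedtools 2.31.1. Sequences were read from GRCh37, words of 50 bases were counted over its primary assembly with numba 0.67.0, the HLA promoters were aligned with Biopython 1.88, and plots were made with matplotlib 3.10.9. The NF-kB site was searched by its usual degenerate letters.

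The members and gene lists were chosen with earlier results of these data known. Named are every member, the gene most like each member, the highest distal peak of each list in a window, and some genes whose promoter state differs from most of their list. Other genes and peaks given as examples were chosen after their values were seen. The alternatives were other promoter and window widths, canonical or protein-coding starts, peak centres, scores of 100 or more, FAIRE heights at or above the median, and other background genes.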

Additional observations from a re-analysis of the deposited data

How the results depend on the processing

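Of 48 alternatives, 38 left a count within 1.5 times its value. The number of genes with promoter H3K4me1, 4 by the main rule, was 0 with start sites widened by 500 bp, 0 with the peak centre inside the promoter, and 2 with the canonical start alone. The number with promoter FAIRE, 6 by the main rule, was 2 without peaks lower than the median of the list. With bounds widened by 100 kb the peaks near the genes numbered 26 for H3K4me3, 52 for H3K27Ac, 34 for H3K4me1 and 65 for FAIRE, because more sequence was searched. With histone scores of 100 or more, 9 H3K4me1 peaks were left, and without FAIRE peaks lower than the median, 13 were left, because fewer peaks were counted. Promoter counts for H3K4me3 and H3K27Ac were 7 to 8 and 7 to 9 under all alternatives run. No paired analysis was possible because each list was made from combined samples, and for the same reason no sample could be left out. The combined lists used here do not show whether a peak was called in each sample, and peak scores rank evidence against input, not amounts of a mark.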
